A study of Mus musculus with 6 samples.

Results

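Skeletal muscle transcripts were measured in interscapular brown fat, the thermogenic depot between the shoulder blades, through 48 genes of the muscle sarcomere, of the membranes that couple excitation to contraction and of muscle metabolism. The genes were taken by symbol from a list of known muscle genes, not by their values, and all 48 had a row among the 54385 gene entries. The list was chosen with earlier results of these data known. The tissue came from 6 C57BL/6N mice fed a chow diet for 20 weeks and kept at 5 °C for the last 24 hours, so cold exposure is common to both groups. All mice carried floxed Adcy3 alleles. The 3 control mice (genotype Adcy3-FL/FL/Adipoq-wt/wt) had no Cre, and the 3 knockout mice (Adcy3-FL/FL/Adipoq-wt/cre) carried Cre under the Adipoq promoter, which is active in adipocytes and not in muscle fibres. Adcy3 encodes adenylyl cyclase 3, which makes cyclic AMP. The age, sex and litter of each mouse were not used here, and the general design text of the series names a different depot and another replicate number, so the tissue and the groups follow the sample labels.

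A muscle fibre shortens when thin filaments of actin, tropomyosin and troponin slide along thick filaments of myosin. Titin and nebulin act as molecular rulers, Z-discs anchor the thin filaments and M-bands the thick ones. An action potential carried by the muscle sodium channel reaches the triad, where a voltage sensor opens calcium release from the sarcoplasmic reticulum, and calcium binding to troponin C starts contraction. Most of these genes are switched on together by MyoD-family factors, MEF2 and serum response factor. Interscapular brown fat lies against muscles of the back, and brown adipocytes share a Myf5-expressing embryonic origin with skeletal muscle. In a bulk sample, fewer muscle cells and less muscle RNA per cell cannot be told apart.

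Promoter windows are shown for 3 members whose levels are compared below: Acta1 and Ckm, which nearly disappeared from 1 knockout library, and Des, which kept a clear level there. Each window holds 250 bases before and 50 bases after a transcription start in RefSeq (build GRCm38.p6), read 5′ to 3′ on the gene's strand. Capitals mark E-boxes (CANNTG, bound by MyoD-family factors), MCAT boxes with the letters CATTCC, the TATA box with the letters TATAAA, CArG boxes (the serum response factor motif) and MEF2 motifs, searched on both strands.
Acta1 (chr8:123894726-123895025, minus strand): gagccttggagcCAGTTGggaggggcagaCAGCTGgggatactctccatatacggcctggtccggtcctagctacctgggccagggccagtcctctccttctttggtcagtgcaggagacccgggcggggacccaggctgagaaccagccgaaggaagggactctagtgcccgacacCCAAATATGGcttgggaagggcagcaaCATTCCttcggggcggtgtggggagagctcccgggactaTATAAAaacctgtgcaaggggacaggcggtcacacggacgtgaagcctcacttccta
Ckm (chr7:19410844-19411143, plus strand): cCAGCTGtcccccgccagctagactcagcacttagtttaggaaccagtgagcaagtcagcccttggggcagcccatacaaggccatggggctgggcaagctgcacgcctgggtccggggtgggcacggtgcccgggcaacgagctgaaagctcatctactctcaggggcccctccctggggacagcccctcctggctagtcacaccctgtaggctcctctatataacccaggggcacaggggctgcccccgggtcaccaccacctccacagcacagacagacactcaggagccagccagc
Des (chr1:75360042-75360341, plus strand): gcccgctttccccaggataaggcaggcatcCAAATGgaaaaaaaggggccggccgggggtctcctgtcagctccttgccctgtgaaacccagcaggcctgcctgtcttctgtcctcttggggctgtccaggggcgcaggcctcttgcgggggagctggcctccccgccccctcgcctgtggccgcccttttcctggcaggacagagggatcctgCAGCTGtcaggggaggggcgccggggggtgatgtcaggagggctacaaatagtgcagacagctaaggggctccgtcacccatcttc
The Acta1 window held 2 E-boxes, 1 CArG box, 1 MCAT box and 1 TATA box, the Ckm window 1 E-box and the Des window 2 E-boxes. RefSeq windows were matched for 37 of the 48 members by symbol. At least 1 E-box was present in 33 of the 37 and 72.1% of all windows. A MEF2 motif was present in 9 of the 37 and 3.26% of all windows, an MCAT box in 12 of the 37 and 14.6% of all windows, a CArG box in 3 of the 37 and 1.57% of all windows, and a TATAAA box in 4 of the 37 and 14.2% of all windows. Motifs may overlap each other, and a match describes letters in the window only.

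Library totals ranged from 13956786 to 17538044 estimated counts, and levels are given as CPM, counts scaled to a common library size after TMM normalization. Values of a gene are always given in the order controls 1, 2 and 3, then knockouts 1, 2 and 3. The targeted gene was checked first: Adcy3 stood at 135, 169 and 158 CPM in controls and 21.9, 30.3 and 24.1 CPM in knockouts, so each library matched its label. Ucp1, the defining brown adipocyte gene, stood between 5398 and 7592 CPM in the 6 libraries, so the tissue matched its label too. Knockout 1 stood apart from the other libraries in the way levels varied with transcript length. Across the 14706 other tested genes with a known length, the log2 deviation from the control mean had a Spearman correlation with length of -0.51 in knockout 1, against 0.12 in knockout 2 and -0.08 in knockout 3. These correlations are across genes, which are not independent replicates. Results that rest on knockout 1 are therefore given with and without it.

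Muscle transcripts were abundant in every control library and ranged from common to nearly absent among the knockouts. The 48 members made up 1.79%, 1.54% and 1.34% of all counts in controls 1 to 3, and 0.868%, 0.0709% and 0.0262% in knockouts 1 to 3. Controls averaged 1.56% ± 0.225 and knockouts 0.322% ± 0.474 (SD over 3 libraries in each group), and the groups did not overlap. The spread among the 3 knockouts exceeded their mean. Against the control mean of each gene, the median member stood at 57.9% in knockout 1, 3.91% in knockout 2 and 0.419% in knockout 3. Every member was highest in knockout 1 among the knockouts, and 44 of the 48 were in the order knockout 1, 2, 3. The controls were ordered as well: 44 of 48 members were highest in control 1 and lowest in control 3, with control 2 between them, with a median ratio of control 1 to control 3 of 1.43.

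In the test over all 6 libraries no member passed. The filter on low counts kept all 48 members, of which 32 were over the count minimum in every knockout library and the other 16 passed through the libraries where they were high. All 48 log2 fold changes were negative, from -3.08 to -1.32 (median -2.17, against 0.01 for all 14767 tested genes), with adjusted p from 0.120 to 0.785 in the edgeR quasi-likelihood test. The count of called members was 0 of 48, where 0.0339% of all tested genes were called lower. An unadjusted p under 0.05 was found for 12 members, and for 1546 of all 14767 tested genes in either direction. DESeq2's Wald test called 3 members lower, Srl, Fbxo32 and Jph1 (adjusted p = 6.16e-08, 4.28e-04 and 0.0404), where it called 1.87% of genes lower. Limma-voom called 0 members, where it called 0.183% of genes lower, and put the median at -4.52. Its unadjusted p was under 0.05 for all 48 members, against 1786 of 14767 genes, and the members' smallest adjusted p was 0.0557. With the replicate number as a block edgeR called 0 members, at a median of -4.17. There the unadjusted p was under 0.05 for 47 members, against 1435 of 14767 genes, and the members' smallest adjusted p was 0.0805. Without the low-count filter edgeR called all 48 lower, where it called 2.45% of all genes lower. In 44 of the 48 members every knockout was below every control, against 10.8% of all tested genes. The exceptions were Tcap, Mb, Tnnc1 and Tnnc2, in which knockout 1 overlapped the controls.

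Leaving out knockout 1 changed the outcome for every member. In that fit of 3 controls against knockouts 2 and 3, all 48 members were lower (edgeR adjusted p from 4.17e-06 to 0.00593), where 5.35% of all 15188 tested genes were called lower. The median log2 fold change was -5.58, against 0.00 for all tested genes. Leaving out any of the other 5 libraries in turn left 0 members called. Knockout 1 is also the knockout in which every member was highest, so this fit leaves out the library nearest to the controls, and the result over all 6 libraries stays 0 called members. All folds and adjusted p-values given for single members below, unless said otherwise, are from the fit without knockout 1, and the level in knockout 1 is given beside them.

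**Figure D1:**
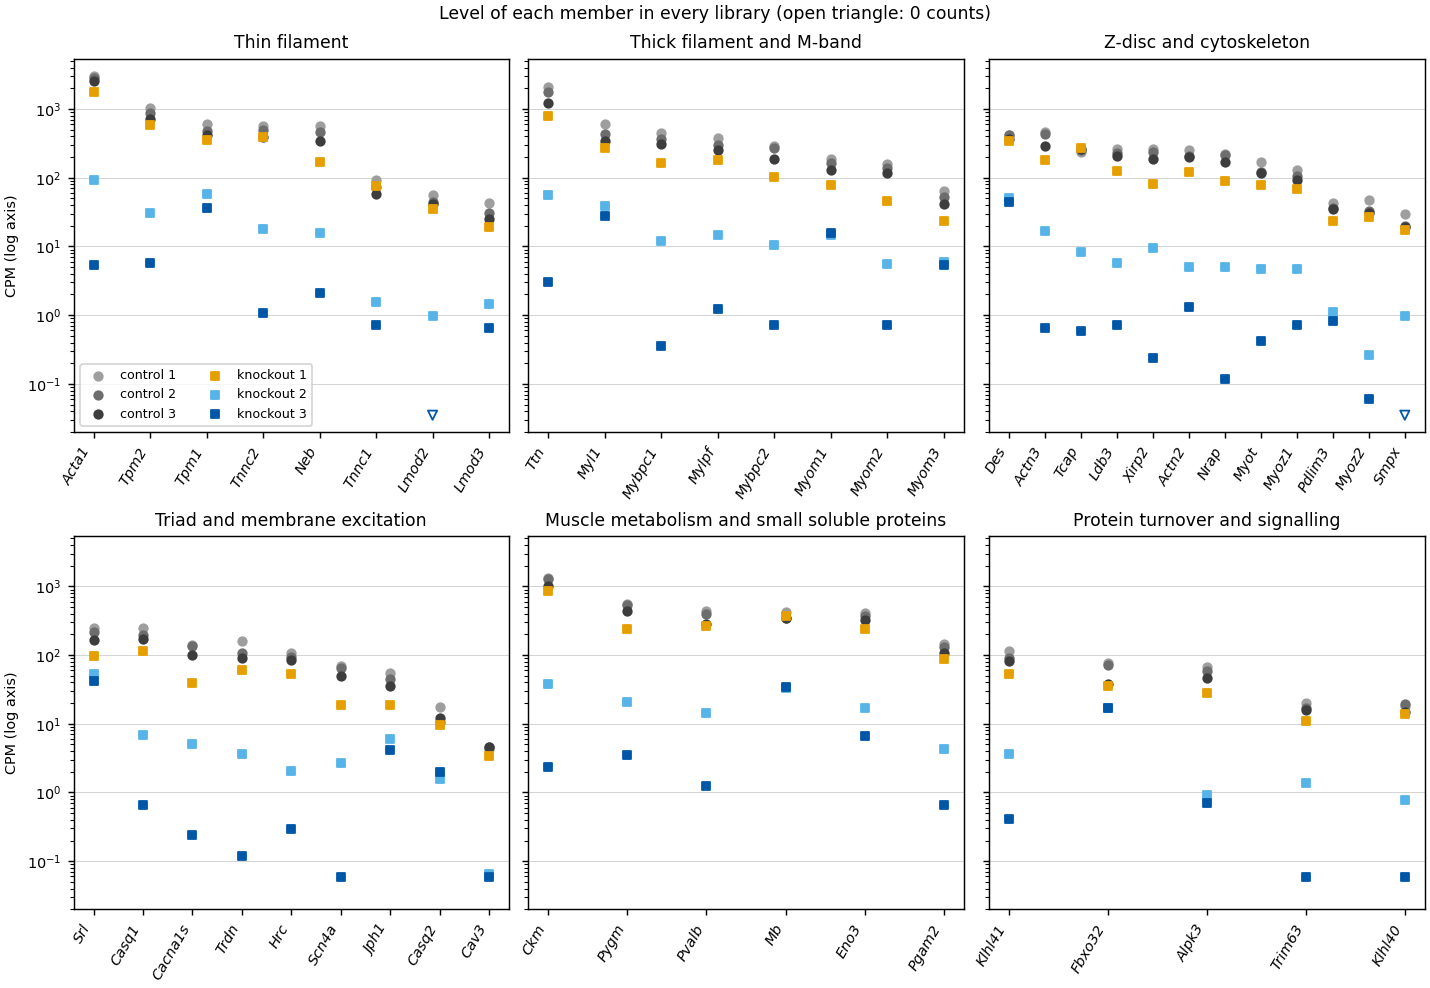
CPM (log axis) of each of the 48 members, 1 panel per role, with grey circles for the 3 controls and squares for the 3 knockouts, and open triangles for 0 counts. Knockout 1 lies under or among the controls, except for Tcap where it is just above them, knockout 2 far below, and knockout 3 lowest for all members but Myom1, Casq2, Mb and Fbxo32.

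All 8 thin filament genes were lower without knockout 1, and none passed with it. In knockouts 1, 2 and 3 their median was 69.4%, 3.51% and 0.561% of the control mean. Acta1, the most abundant member per length, is skeletal muscle actin (ENSMUSG00000031972, chromosome 8, 123891769 to 123894751, minus strand, GRCm38). It stood at 3025, 2821 and 2525 CPM in controls and 1793, 91.6 and 5.34 CPM in knockouts. Knockout 3 thus held 0.192% of the control mean and knockout 1 64.3% (log2 fold change -5.85 ± 0.98, SE, edgeR adjusted p = 0.00568). The sequence of Acta1 is close to those of cardiac and smooth muscle actin, so its reads may be shared, but Actc1 (control mean 6.81 CPM) and Acta2 (16.1 CPM) were minor beside it. Tpm2, the beta-tropomyosin that lies along actin, stood at 1034, 877 and 714 CPM in controls and 592, 31.2 and 5.82 CPM in knockouts. Tpm1, alpha-tropomyosin, which smooth muscle and other cells also make, stood at 612, 481 and 420.2 CPM in controls and 359, 57.1 and 36.1 CPM in knockouts. These tropomyosins were ordered alike in all 6 libraries, but knockouts 2 and 3 differed 5.35-fold in Tpm2 and 1.58-fold in Tpm1. Tnnc2, the calcium sensor troponin C of fast fibres, stood at 565, 494 and 393 CPM in controls and 394, 18.1 and 1.07 CPM in knockouts. Tnnc1, the troponin C of slow and cardiac muscle, stood at 93.9, 72.6 and 57.6 CPM in controls and 75.1, 1.56 and 0.713 CPM in knockouts. For both troponin C genes knockout 1 was above control 3, so the groups overlapped. Without that library Tnnc2 was lower (log2 fold change -5.67 ± 0.84, SE, edgeR adjusted p = 0.00257), as was Tnnc1 (log2 fold change -6.05 ± 0.33, SE, edgeR adjusted p = 7.85e-06). Neb, the giant nebulin along the thin filament, stood at 566, 459.7 and 340.0 CPM in controls and 169, 15.7 and 2.08 CPM in knockouts, with knockout 1 at 37.2% of the control mean. Lmod2 and Lmod3, leiomodins that seed and lengthen actin filaments, were at 73.6% and 59.7% in knockout 1. Lmod2 had 0 counts in knockout 3, at least 264-fold lower than the control mean against a floor of 3 counts in that library.

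All 8 thick filament and M-band genes were lower without knockout 1, and none passed with it. Their median in knockout 1 was the lowest of the 6 roles, at 45.5% of the control mean, against 4.48% and 0.460% in knockouts 2 and 3. Ttn, titin, which spans the sarcomere from Z-disc to M-band (ENSMUSG00000051747, chromosome 2, 76703980 to 76982547, minus strand), stood at 2119.5, 1769.5 and 1233 CPM in controls and 784, 55.3 and 3.03 CPM in knockouts (log2 fold change -5.87 ± 0.99, SE, edgeR adjusted p = 0.00593). Myl1, the essential myosin light chain of fast fibres, stood at 599, 437 and 345 CPM in controls and 268, 39.2 and 27.6 CPM in knockouts. Mylpf, the regulatory light chain of fast fibres, stood at 381, 296 and 250.0 CPM in controls and 184, 14.8 and 1.25 CPM in knockouts. For both light chains every knockout was below every control, but knockout 3 kept 6.00% of Myl1 and 0.404% of Mylpf. Mybpc1 and Mybpc2 encode the myosin-binding proteins C of slow and fast fibres. Mybpc1 stood at 453, 366 and 314 CPM in controls and 165, 11.9 and 0.356 CPM in knockouts. Mybpc2 was at 40.8%, 4.16% and 0.286% of its control mean in knockouts 1 to 3. The myomesins cross-link thick filaments at the M-band, and the 3 genes differed in knockout 3. Myom1 stood at 188, 166 and 131 CPM in controls and 78.1, 14.7 and 15.5 CPM in knockouts. Myom2 was at 33.2%, 4.02% and 0.516% of its control mean in knockouts 1 to 3, and Myom3 at 45.1%, 11.2% and 10%. Myom1 and Myom3 were thus within 1.12-fold between knockouts 2 and 3, whereas Myom2 was 7.78-fold higher in knockout 2. The start of Myom1 overlaps the start of Myl12a, which lies on the opposite strand. Myl12a stood at 80.2, 76.7 and 80.4 CPM in controls and 93.8, 46.5 and 52.1 CPM in knockouts. The strand setting of the counting was not given in the sources used here. Reads from the short stretch that both genes share thus cannot be told apart. Other coding genes on the opposite strand overlap Acta1, Tnnc1, Tnnc2, Nrap and Mb. Of these, Nisch, whose span contains all of Tnnc1, was abundant, with a control mean of 196 CPM and 194 CPM in knockout 3. The part of Nisch reads in the counts of Tnnc1 was not tested.

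All 12 genes of the Z-disc and cytoskeleton were lower without knockout 1, and none passed with it. Their medians in knockouts 1, 2 and 3 were 59.7%, 3.39% and 0.269% of the control mean. Des, desmin, the intermediate filament that ties Z-discs together and that vascular smooth muscle also makes (ENSMUSG00000026208, chromosome 1, 75360329 to 75368579, plus strand), stood at 422, 422 and 372 CPM in controls and 341, 51.5 and 43.7 CPM in knockouts (log2 fold change -3.09 ± 0.14, SE, edgeR adjusted p = 4.43e-06). The 3 controls were close to each other for Des, and knockouts 2 and 3 were close to each other as well. Actn3, the alpha-actinin of fast fibres, stood at 464, 435 and 292 CPM in controls and 182, 16.9 and 0.653 CPM in knockouts. Actn2, the alpha-actinin of all fibres, stood at 250.5, 205 and 203 CPM in controls and 122, 5.08 and 1.31 CPM in knockouts. Every knockout was below every control for both alpha-actinins. Tcap, telethonin, which caps titin at the Z-disc, stood at 235, 251 and 267 CPM in controls and 268, 8.41 and 0.594 CPM in knockouts. Knockout 1 was therefore the highest of the 6 libraries for Tcap, and the controls were in the reverse of the usual order. Ldb3, a Z-disc scaffold, stood at 267, 232 and 209 CPM in controls and 127, 5.67 and 0.713 CPM in knockouts. Xirp2, an actin-binding repeat protein, and Nrap, an anchor of actin, were at 35.4% and 45.0% of control in knockout 1. In knockout 3 they had 4 and 2 counts. Myot, Myoz1 and Myoz2, Z-disc proteins that bind alpha-actinin or filamin, ranged from 57.8% to 71.9% in knockout 1. Myoz2, which marks slow fibres, stood at 48.2, 33.3 and 30.6 CPM in controls and 26.9, 0.261 and 0.0594 CPM in knockouts (log2 fold change -7.84 ± 0.42, SE, edgeR adjusted p = 7.56e-06). This fold rests on 4 and 1 counts in knockouts 2 and 3, and counting alone puts knockout 3 between 0.00402% and 0.886% of the control mean (exact Poisson interval, 95%). Pdlim3, an alpha-actinin partner, stood at 43.5, 36.6 and 34.9 CPM in controls and 23.6, 1.11 and 0.831 CPM in knockouts (log2 fold change -5.30 ± 0.22, SE, edgeR adjusted p = 4.17e-06). Smpx, a small muscle protein, had 0 counts in knockout 3, at least 129-fold lower than the control mean against the same floor of 3 counts.

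All 9 genes of the triad and membrane excitation were lower without knockout 1, and none passed edgeR's test with it. They held both the lowest levels of any member in knockout 1 and some of the highest in knockout 3. Casq1, the main calcium buffer of the sarcoplasmic reticulum in fast fibres, stood at 249.6, 197 and 173 CPM in controls and 115, 6.78 and 0.653 CPM in knockouts. Casq2, the form of cardiac and slow muscle, stood at 17.8, 10.6 and 12.0 CPM in controls and 9.61, 1.56 and 2.02 CPM in knockouts, so that knockout 3 was above knockout 2. Cacna1s, the voltage sensor of the triad, stood at 138, 137 and 99.2 CPM in controls and 39.3, 5.08 and 0.238 CPM in knockouts. Scn4a, the muscle sodium channel, and Cacna1s were at 31.2% and 31.4% of control in knockout 1, the lowest of all members there. Srl, sarcalumenin, a calcium-binding glycoprotein of the sarcoplasmic reticulum (ENSMUSG00000022519, chromosome 16, 4480216 to 4541816, minus strand), stood at 252, 215 and 168 CPM in controls and 96.7, 52.2 and 42.2 CPM in knockouts (log2 fold change -2.16 ± 0.19, SE, edgeR adjusted p = 6.81e-05). It had the smallest adjusted p of any member with all 6 libraries (log2 fold change -1.73 ± 0.31, SE, edgeR adjusted p = 0.120). Trdn, triadin, which links the buffer to the release channel, stood at 159, 109 and 91.4 CPM in controls and 61.3, 3.59 and 0.119 CPM in knockouts. Hrc, another luminal calcium-binding protein, was at 57.1%, 2.21% and 0.315% of control in knockouts 1 to 3. Jph1, junctophilin 1, which holds the triad membranes together, was at 42.3%, 13.5% and 9.12%. Cav3, the caveolin of muscle, was the least abundant member, with a control mean of 4.48 CPM and 1 count in each of knockouts 2 and 3.

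All 6 metabolic genes and small soluble proteins were lower without knockout 1, and none passed with it. In knockout 3, 5 of them were below 2% of the control mean and myoglobin was at 9.31%. Ckm, muscle creatine kinase, which regenerates ATP during contraction (ENSMUSG00000030399, chromosome 7, 19404776 to 19422841, plus strand), stood at 1344, 1268 and 1026 CPM in controls and 866, 38.0 and 2.38 CPM in knockouts (log2 fold change -5.91 ± 0.92, SE, edgeR adjusted p = 0.00363). Pygm, the glycogen phosphorylase of muscle, stood at 557, 528 and 434 CPM in controls and 243, 20.7 and 3.56 CPM in knockouts. Pvalb, parvalbumin, the calcium buffer of fast fibres, stood at 441, 397 and 286 CPM in controls and 269, 14.3 and 1.25 CPM in knockouts. Eno3 and Pgam2, muscle forms of glycolytic enzymes, were at 65.8% and 68.8% of control in knockout 1 and at 1.77% and 0.513% in knockout 3. Mb, myoglobin, the oxygen store of oxidative fibres, which brown adipocytes also make (ENSMUSG00000018893, chromosome 15, 77015487 to 77050670, minus strand), stood at 420.5, 349.7 and 341 CPM in controls and 376, 33.4 and 34.5 CPM in knockouts. Knockout 1 was above 2 of the controls for Mb, and knockouts 2 and 3 were nearly level with each other (log2 fold change -3.45 ± 0.14, SE, edgeR adjusted p = 4.17e-06). The span of Mb overlaps Apol6 on the opposite strand, at 30.7, 25.8 and 31.8 CPM in controls and 22, 18.6 and 15 CPM in knockouts.

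All 5 genes of protein turnover and signalling were lower without knockout 1, and none passed edgeR's test with it. Klhl41 and Klhl40, kelch proteins that stabilise nebulin and leiomodin, differed in level. Klhl41 stood at 115, 89.7 and 81.9 CPM in controls and 52.2, 3.59 and 0.416 CPM in knockouts. Klhl40 was at 79.8% of control in knockout 1 and had 1 count in knockout 3. Fbxo32, the ubiquitin ligase atrogin-1, which is not limited to skeletal muscle (ENSMUSG00000022358, chromosome 15, 58175879 to 58214932, minus strand), stood at 77.2, 70.9 and 38.5 CPM in controls and 35.1, 16.8 and 17.1 CPM in knockouts (log2 fold change -1.88 ± 0.27, SE, edgeR adjusted p = 0.00201). Control 3 was close to knockout 1 for this gene, and the ratio of control 1 to control 3 was 2.01, the highest of all members. Trim63, the muscle ubiquitin ligase MuRF1, stood at 20.0, 16.8 and 15.8 CPM in controls and 11.1, 1.37 and 0.0594 CPM in knockouts. Alpk3, an alpha-kinase of muscle, stood at 66.1, 59.3 and 46.3 CPM in controls and 27.7, 0.913 and 0.713 CPM in knockouts (log2 fold change -6.13 ± 0.25, SE, edgeR adjusted p = 4.17e-06). The ligases Fbxo32 and Trim63, both known from muscle wasting, stood apart in knockout 3, at 27.5% of the control mean and 0.339% (1 count).

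Sorted by their level in knockout 3, the members formed a set of 10 that kept 5% or more of the control mean and 38 that kept 2.17% or less. The 5% line was drawn after the values were seen, and the division is a description with no test. The 10 were Fbxo32, Srl, Casq2, Des, Myom3, Myom1, Mb, Jph1, Tpm1 and Myl1, from 27.5% down to 6.00%. Just outside the line were Pdlim3 at 2.17%, Lmod3 at 2.00% and Eno3 at 1.77%. Among the 10, the ratio of knockout 2 to knockout 3 ranged from 0.775 to 1.58 (median 1.15). Among the 36 others with counts in knockout 3 it ranged from 1.10 to 45.0 (median 10.8). Knockout 3 both set the division and is the denominator of this ratio. The contrast in ratios therefore follows at least in part from the sorting. The plain difference between these libraries was closer: knockout 2 exceeded knockout 3 by a median of 1.57% of the control mean in the 10 and 3.05% in the 38. In knockout 1 the medians were 57.3% and 58.7%. The 10 came from all 6 roles: thin filament 1, thick filament and M-band 3, Z-disc 1, triad 3, metabolism 1 and turnover 1. Smooth muscle and brown adipocytes are known to make some of the 10. The median gene of 16 smooth muscle and pericyte markers stood at 81.0% and 79.3% of its control mean in knockouts 2 and 3, and the part of such cells in the residual levels was not tested. At this depth 9 members had 3 counts or fewer in knockout 3, of which 2 had none, so ratios to that library are uncertain for these.

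**Figure D2:**
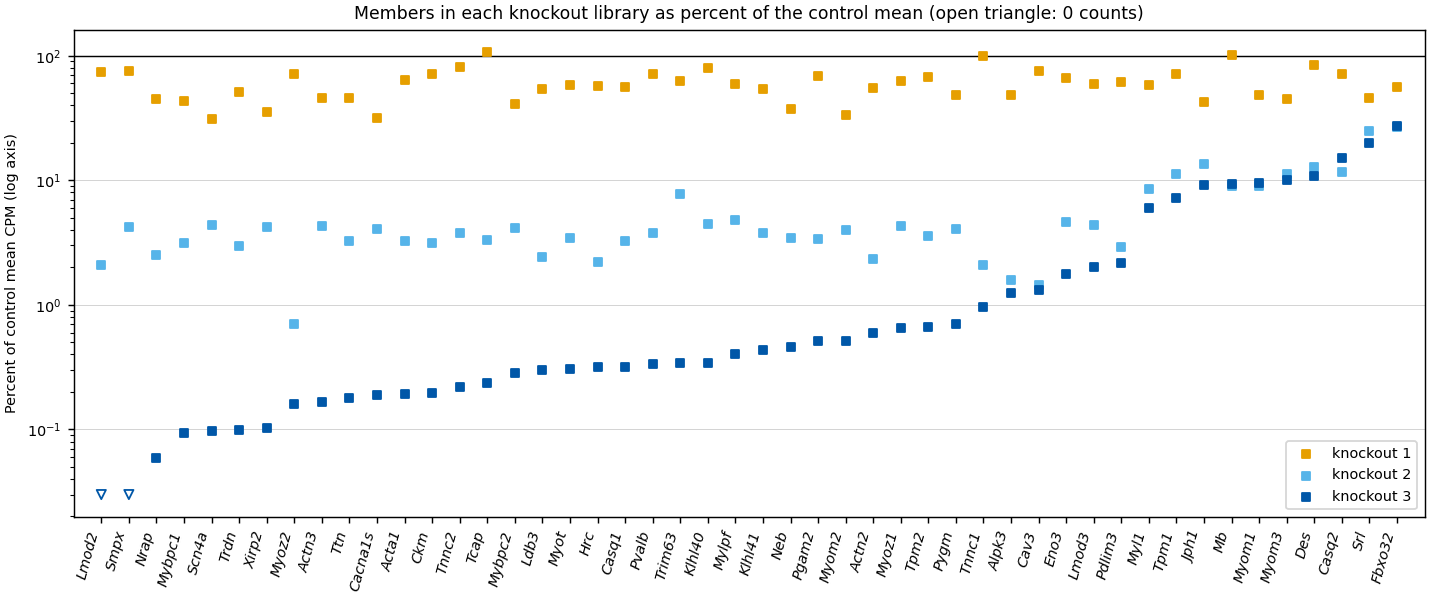
Level of each member in knockouts 1, 2 and 3 as percent of the control mean CPM (log axis), sorted by knockout 3, with a line at 100% and open triangles for 0 counts. Knockouts 2 and 3 lie close together for the 10 members on the right and far apart for most members on the left, whereas knockout 1 shows no such division. The members are sorted by knockout 3 itself, so this contrast follows at least in part from the sorting.

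In knockout 1 the level of the members varied with transcript length. Of the 48 members, 32 were above 50% of the control mean there. The short transcripts of Tcap (948 nt), Mb (1104 nt) and Tnnc1 (721 nt) were at 107%, 101% and 100.5%. The long transcripts of Neb (22489 nt), Xirp2 (11979 nt), Scn4a (6598 nt) and Cacna1s (6251 nt) were at 37.2%, 35.4%, 31.2% and 31.4%. These are members near the ends of the range. The short Mylpf (766 nt) and Myl1 (1082 nt) were at 59.7% and 58.1%, and Ttn, the longest (106824 nt), at 45.9%. Across the 48 members the Spearman correlation with length was -0.77 in knockout 1, 0.06 in knockout 2 and -0.03 in knockout 3. In controls 1, 2 and 3 it was 0.005, 0.41 and -0.35. For the 38 members under 5% in knockout 3, taken on percent of the control mean, it was -0.85, -0.03 and -0.25 in knockouts 1, 2 and 3. These are given as a description because the genes share a library. The other genes of knockout 1 followed length too. Their median was 137% of the control mean for transcripts up to 1000 nt and 80.0% over 5000 nt, where the members had medians of 77.5% and 45.9%. Set against other genes of the same length class, the members of knockout 1 stood at 56.4%, 53.2%, 57.5%, 50% and 57.3% from the shortest to the longest of 5 classes (6, 12, 11, 7 and 12 members). The overlap of Tcap, Mb, Tnnc1 and Tnnc2 with the controls, each of at most 1104 nt, occurred in the classes where other genes of that library were also above the control mean. The part of RNA quality or library preparation was not tested.

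**Figure D3:**
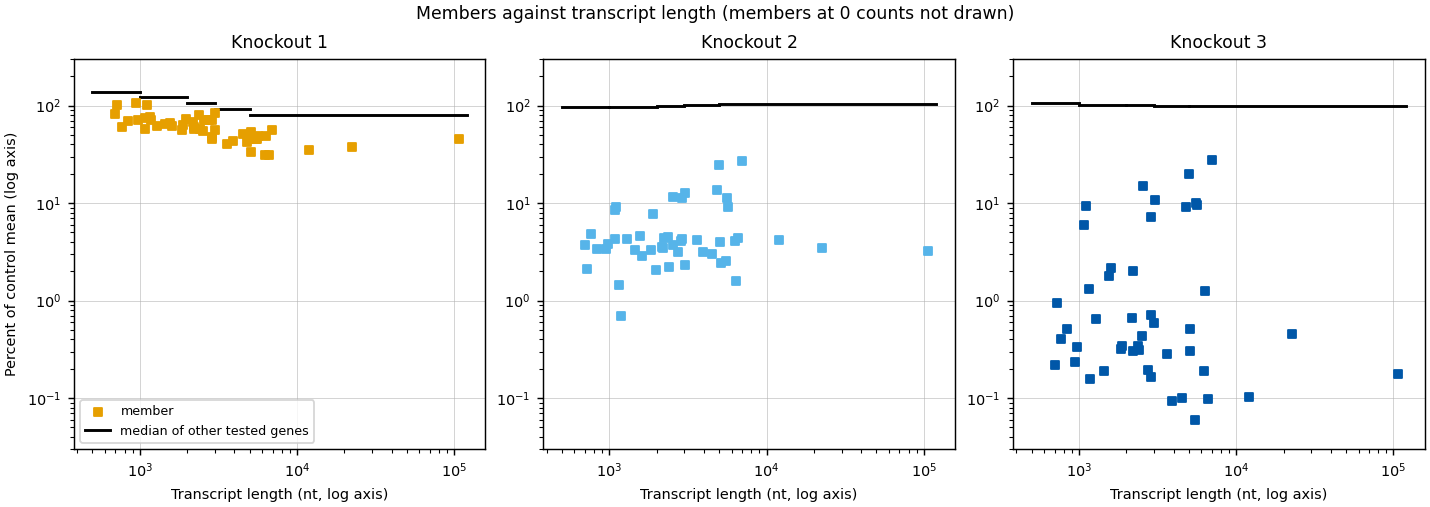
Percent of the control mean (log axis) against transcript length (log axis) for each member with counts in knockouts 1, 2 and 3, with black lines for the median of all other tested genes in 5 length classes. In knockout 1 members and other genes slope down together, with the members at between 50% and 57.5% of the other genes in each class, and in knockouts 2 and 3 the medians of the other genes stay between 96.0% and 106%.

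Related members were compared per kilobase of transcript. In controls Acta1 led at 1929.7 ± 174 CPM per kilobase (SD, n = 3), followed by Tnnc2 at 691 ± 123. The next 5, Ckm (442 ± 60.7), Myl1 (426 ± 119), Mylpf (403 ± 86.5), Tpm2 (402 ± 73.7) and Pvalb (384 ± 81.8), lay within their spread of each other. Cav3 was lowest at 3.87 ± 0.0929. Within pairs of slow (or shared) and fast forms, the share of the first was taken per length. Of Tnnc1 plus Tnnc2, Tnnc1 made up 12.9% ± 0.821 in controls (SD, n = 3), 15.6% in knockout 1, 7.73% in knockout 2 and 39.3% in knockout 3. Of Myoz1 plus Myoz2, Myoz2 made up 26.9% ± 1.75 in controls (SD, n = 3), 29.9% in knockout 1, 5.64% in knockout 2 and 8.34% in knockout 3. Of Actn2 plus Actn3, Actn2 made up 35.1% ± 4.50 in controls (SD, n = 3), 39.1% in knockout 1, 22.3% in knockout 2 and 65.7% in knockout 3. Of Mybpc1 plus Mybpc2, Mybpc1 made up 58.4% ± 2.87 in controls (SD, n = 3), 59.9% in knockout 1, 51.3% in knockout 2 and 31.5% in knockout 3. For these 4 pairs knockout 2 was below every control in the share of the slow or shared form. Knockout 1 was above every control for Tnnc1 and Myoz2 and within the range of the controls for Actn2 and Mybpc1. Knockout 3 went the other way for Tnnc1 and Actn2, so the knockouts shared no direction. Counts were few: Myoz2 had 4 in knockout 2 and 1 in knockout 3, and Tnnc1 had 12 in knockout 3. In knockout 3 Mybpc1 and Mybpc2 had 6 and 12, Actn2 and Actn3 had 22 and 11, and Casq2 and Casq1 had 34 and 11. Tnnc1 also lies within the span of the abundant Nisch on the opposite strand, whose part in these counts was not tested. The fibre myosins, which are not members, were unequal in knockout 2 too: slow Myh7 was at 0.641% of its control mean and fast Myh4 at 3.92%. Of Casq1 plus Casq2, Casq2 made up 4.48% ± 0.635 in controls (SD, n = 3), 5.70% in knockout 1, 14.3% in knockout 2 and 69.1% in knockout 3, so knockouts 2 and 3 were both above the controls. Casq2 is among the 10 members at 5% or more in knockout 3.

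Other genes of muscle fibres were set beside the members. The list of 62 further fibre genes summed to 11919.9 to 15889 CPM in controls and to 7128, 1037 and 593 CPM in knockouts 1 to 3. The log2 fold change over all libraries was negative for 61 of its 61 tested genes, with a median of -1.96. None was called by edgeR over all libraries, while 56 of 61 were lower without knockout 1, where 5.35% of all genes were. Its most abundant genes were Myh4, the fastest myosin, at 4396, 4279 and 2579.8 CPM in controls and 1268, 147 and 7.01 CPM in knockouts, and Atp2a1, the calcium pump of fast fibres, at 2754, 2719 and 2384 CPM in controls and 1171, 95.1 and 4.87 CPM in knockouts. Some genes of the list hardly differed: Mef2d, Mss51, Dysf and Hspb8 had log2 fold changes over all libraries of -0.014, -0.023, -0.032 and -0.039. Of the list's 593 CPM in knockout 3, Fhl1, Mef2d, Hspb8 and Dysf held 138, 132, 113 and 57.5 CPM. Muscle precursors, nerve contacts and tendon genes were low in all libraries, and their sums had the knockouts in the same order as the members. Satellite cell and myoblast genes summed to 15.9 to 19.5 CPM in controls and 1.19 to 12.1 CPM in knockouts, and 4 of 6 tested genes were lower without knockout 1. They were Myf6, Myod1, Myog and Cdh15. Myf6 was the most abundant gene of the list, at 8.07, 8.36 and 7.57 CPM in controls and 4.20, 0.326 and 0 CPM in knockouts, so the sum leans on it. Pax7, Pax3 and Myf5, markers of satellite cells and myoblasts, did not pass the filter and were not tested. Pax7 was at 0.530, 0.401 and 0.670 CPM in controls and 0.203 CPM in knockout 1. Myf5 was at 0.824, 0.401 and 0.469 CPM in controls and 0.271 CPM in knockout 1. Pax7 and Myf5 had 0 counts in knockouts 2 and 3, where 3 counts correspond to 0.196 and 0.178 CPM. Neuromuscular junction genes summed to 31.7 to 37.7 and 5.29 to 18.6 CPM, with 8 of 9 lower without knockout 1. Of the most abundant junction genes, Chrnb1 was at 58.5%, 65.2% and 40.5% of its control mean in knockouts 1 to 3. Lrp4 was at 19.2%, 21.0% and 9.01%, and Ache at 83.4%, 25.5% and 25.5%. Chrnb1 was the tested junction gene not called without knockout 1. Chrne, the adult subunit of the acetylcholine receptor, was at 1.83, 0.573 and 1.34 CPM in controls. In knockouts 1 and 2 it stood at 0.812 and 0.0652 CPM, so knockout 1 was above control 2. Knockout 3 had 0 counts of Chrne. Tendon and fascia genes summed to 20.8 to 52.6 and 6.41 to 11.3 CPM, with 3 of 6 lower without knockout 1 (Scx, Thbs4 and Cilp). Thbs4 was at 5.71, 3.55 and 12.1 CPM in controls, at 1.42 CPM in knockout 1 and at 0 counts in knockouts 2 and 3. None of these 3 lists had a gene called over all 6 libraries by edgeR.

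Markers of other cells were set beside the members. Cardiac muscle genes were low in both groups, with a summed 13.1 to 17.6 CPM in controls and 11.8 to 17.2 CPM in knockouts. Myl7, Mybpc3, Nppb and Nkx2-5 were at 0 counts in all 6 libraries. Smooth muscle and pericyte genes summed to 616 to 685 CPM in controls and 537 to 699 CPM in knockouts, with 2 of 16 lower without knockout 1 (Lmod1 and Mustn1). The pericyte gene Rgs5 was the most abundant of them, at 280.0, 268 and 282 CPM in controls and 246, 370 and 357 CPM in knockouts, so the sum says little of the others. The median gene stood at 87.3%, 81.0% and 79.3% of control in knockouts 1 to 3, with a log2 fold change below 0 for 10 of 16 and every knockout below every control for 6 of 16. Tagln, a marker of contractile smooth muscle, was at 117%, 63.7% and 60.9% of control, and Lmod1, the leiomodin of smooth muscle, at 77.5%, 15.1% and 13.7%. Fibroblast and macrophage genes had the sign of the members. For 10 of 10 fibroblast genes the log2 fold change lay below 0, at a median of -0.80, and the sum was 548 to 829 CPM in controls and 309.6 to 513 CPM in knockouts. Without knockout 1, 7 of 10 were lower, and the median gene stood at 72.7%, 52.8% and 42.3% of control in knockouts 1 to 3. Macrophage genes summed to 89.3 to 168 and 69.5 to 156 CPM. The log2 fold change lay below 0 for 10 of 10, with a median of -0.42 over all libraries and -0.86 without knockout 1, where 2 of 10 were lower (Csf1r and Mrc1). The median macrophage gene stood at 112%, 57.4% and 52.3% of control in knockouts 1 to 3, the order of the members. The part of smooth muscle, fibroblasts and macrophages in the members' differences was not tested. Brown adipocyte genes summed to 8792 to 9732 CPM in controls and 11035 to 12138 CPM in knockouts, without overlap. Knockouts 1 and 3 were the highest there, unlike for the members, and Ucp1 was the 1 gene of the list called higher without knockout 1. For general adipocyte genes the sums were 14326 to 15264 and 15284 to 18216 CPM, with 3 of 12 lower without knockout 1 (Cfd, Retn and Lep). Endothelial genes summed to 761 to 971 and 780.3 to 983 CPM with 0 of 10 lower, and Schwann cell and nerve genes to 125 to 182 and 128 to 149.7 CPM with 2 of 9 lower. Blood genes summed to 724 to 1324 and 870.1 to 1591 CPM with 0 of 6 lower. No gene of these lists was called over all 6 libraries by edgeR.

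**Figure D4:**
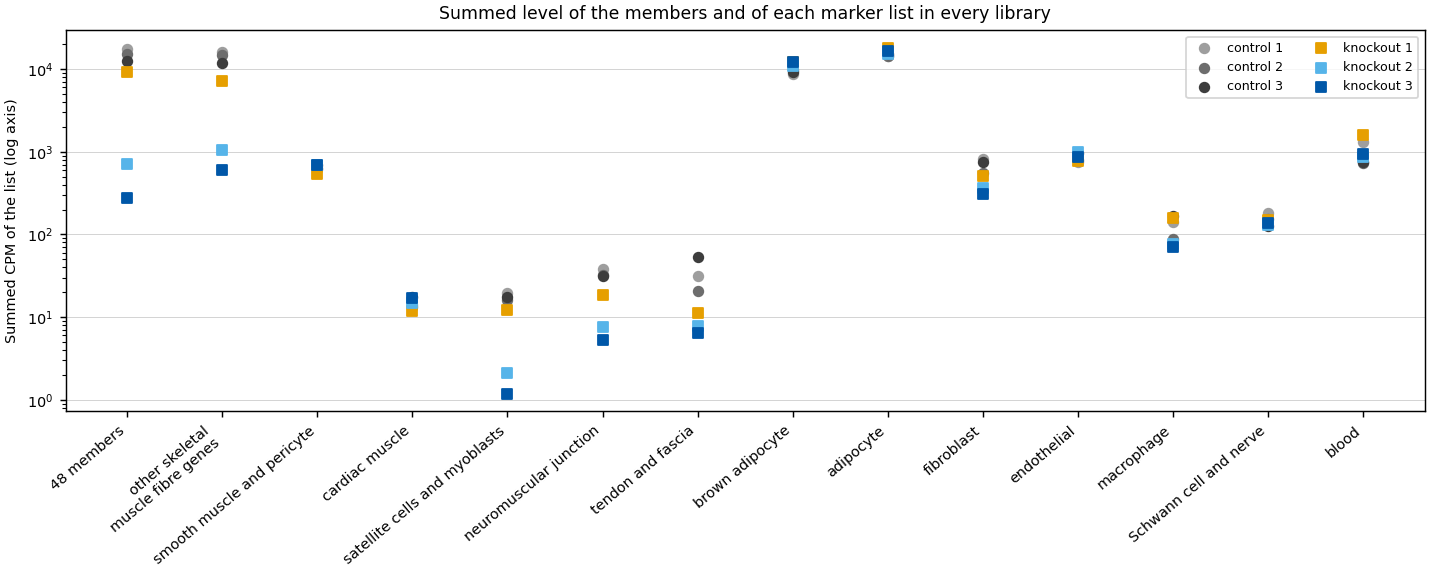
Summed CPM (log axis) of the 48 members and of 13 marker lists in each library, with circles for controls and squares for knockouts. The members, the other fibre genes, satellite cells and the neuromuscular junction are spread widely among the knockouts. Smooth muscle and endothelial sums lie close together in all 6 libraries, Rgs5 being the most abundant gene in the smooth muscle sum. Brown adipocyte sums are higher in every knockout than in every control, a difference that looks small on this axis.

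The genes nearly lost from knockout 3 were largely muscle genes. Of 8002 genes with a control mean of at least 10 CPM, 119 (1.49%) were at 2% or less of that mean in knockout 3. They included 36 of the 47 members over that level, 34 genes of the further muscle fibre list, and Cilp of the tendon list. The other 48 were in none of the lists. Members and listed fibre genes together were 58.8% of the 119. Those that are not members stood at a median of 56% of control in knockout 1 and 3.34% in knockout 2. These genes were picked on their level in knockout 3, so that level is a description.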

How the data were processed

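The authors deposited 1 table of estimated counts per gene (54385 entries, 6 libraries) that need not be whole and carry no normalization, per the values in the file. Per the submitters' processing notes, StringTie, Salmon and edgeR were used with the build GRCm38. Per the labels' protocols, libraries were paired-end and polyA-selected (NEBNext Ultra II). Tool versions and roles, annotation release and strand setting: not given in the sources used here. Columns were matched to samples by the name in each description. Symbols, positions and lengths came from GENCODE vM21 (54131 entries had a symbol), length being that of the longest basic protein-coding transcript, so values per kilobase ignore isoform use.

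Estimated counts were rounded, filtered with filterByExpr (minimum count 10, total 15), scaled by TMM and tested across all genes with edgeR 4.0.16 in R 4.3.3 (quasi-likelihood F test, two-sided, genotype only, Benjamini-Hochberg adjusted p under 0.05, standard error = log2 fold change over the root of F). The same fit was tested on simulated counts with a single dispersion for all genes, lower than that of these data. That run therefore does not cover a group as uneven as these knockouts. Alternatives used DESeq2 1.42.0, limma-voom 3.58.1, other factors, filters and dispersion, a replicate block and each library left out. Length deviations used log2(CPM + 0.5). The floor for 0 counts is 3 counts in a library, which covers counting error only. Libraries of a group differed beyond sampling noise (chi-square over degrees of freedom at least 12.1) and were kept separate. P-values cover only the spread among these 6 libraries.

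The members, lists, tests and alternatives were chosen with earlier results of these data known. Values in every library are given for up to 4 members per role with the highest control level, the 6 with the highest log2 fold change and the 6 with the smallest p without knockout 1; other members are given by percent of control. The marker lists cover further fibre genes, smooth muscle, cardiac muscle, satellite cells, neuromuscular junction, tendon, brown adipocytes, adipocytes, fibroblasts, endothelium, macrophages, Schwann cells and blood.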

Additional observations from a re-analysis of the deposited data

How the results depend on the processing

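No alternative reversed the log2 fold change of any of the 48 members. Over all 6 libraries edgeR called 4 genes higher, 5 lower and 0 members. DESeq2 called 31 higher, 276 lower and 3 members, and edgeR without a low-count filter called 111 higher, 782 lower and 48 members. Limma-voom called 27 genes lower, and robust dispersion, like an adjusted p under 0.1, called 7 higher and 39 lower, none of them members. Leaving out 1 library at a time gave 3 to 45 genes higher, 1 to 812 lower and 0 to 48 members lower, with member medians from -5.58 to -1.63; the high counts and the lowest median came without knockout 1. With 1 library left out of 3, that group's spread rests on 2. The member share in knockouts minus controls was -1.24 percentage points, and -1.51 to -1.09 with 1 library left out. The cause of the changes with DESeq2, the filter and the dispersion was not tested. With the replicate number as a block, 2 genes were called higher, 2 lower and 0 members. Same-numbered libraries correlated at 0.0860, 0.109 and 0.0761 in their deviations from the group means and other pairs at -0.0689 to -0.00534, so each library correlated best with its own number, a hint from the data and not the design, and the numbers were not taken as pairs. RLE, upper-quartile and member-free scaling, a filter of 1 CPM in 3 libraries and unrounded counts called 0 members. Depth limits the members with 3 counts or fewer in knockout 3.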

Other observations

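Genes outside the members and the lists that followed the same order were looked at among the 48 unlisted genes nearly lost from knockout 3, taking those with the highest control levels after their values were seen. Eef1a2, the translation elongation factor form of muscle and neurons, had a control mean of 164 ± 14.2 CPM (SD, n = 3) and stood at 56.1%, 2.43% and 0.145% of it in knockouts 1 to 3. H19, an imprinted noncoding RNA, had 149.8 ± 22 CPM in controls and stood at 68.2%, 3.18% and 1.03%. Flnc, the filamin of muscle, was at 41.5%, 3.79% and 0.321%, Ckmt2, the mitochondrial creatine kinase of muscle, at 74.0%, 2.53% and 0.251%, Mylk4, a myosin light chain kinase, at 35.4%, 5.22% and 0.670%, and Apobec2, a muscle protein of the deaminase family, at 70.6%, 2.86% and 0.158%.

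Of the unlisted genes, 4 were above their control mean in knockout 1: Gm29216, Gm45837, Gm12918 and Ppp1r27. Gm45837, Gm12918 and Ppp1r27 stood at 147%, 199.7% and 111% of it. Gm29216, whose identity beyond its symbol was not looked into, had a control mean of 270.4 CPM and stood at 5115 CPM in knockout 1, 3.52 CPM in knockout 2 and 2.85 CPM in knockout 3.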
